A study of Mus musculus with 64 samples.

Results

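The comparison described here was between left ventricles (LV) of Pkp2-deleted mice that received a high dose of a vector carrying mouse Pkp2 late, after the gene had been removed, and LV of wild-type (WT) mice. It rested on 6 late-dosed LV libraries and 9 WT LV libraries, 15 of the 64 RNA-seq libraries of the series, with 1 LV library per animal, chosen by the animals' labels alone. The late-dosed animals (AAV_1E14_2.5wk) were C57BL6 mice with floxed Pkp2 alleles and αMyHC-Cre-ER(T2), a tamoxifen-inducible Cre driven by the alpha cardiac myosin promoter, and they received AAV9:mPkp2 by retro-orbital injection at 1e+14 vector genomes per kg, 2.5 weeks after tamoxifen. The WT animals were Pkp2 fl/fl littermates without Cre that received HBSS, the vehicle. Both groups were collected 51 weeks after tamoxifen, so these are hearts of animals that were alive at that time. Further LV libraries were used where named, 5 from AAV_1E14 animals, which had the same genotype and dose but were dosed 1 week before tamoxifen according to the labels (early-dosed), and 4 from untreated knockout animals (cKO), which received HBSS and were collected at an earlier age. The study's figure legend gives the early dose both as 1 week before and as 1 week after induction, so its timing is uncertain. Animals are named by group and by the number in their labels, as in late-5755 and WT-5803. Late-dosed and WT right ventricles (RV) of the same animals, 6 and 9 libraries, were used to compare the ventricles. The Cre acts in cardiomyocytes, so other cells of the heart keep their Pkp2. The vector encodes the mouse gene, so its transcripts and those of the animal's own gene both count as Pkp2. The study gives a range of ages for its animals. The age of each animal was not used here.

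Plakophilin-2, the product of Pkp2, is an armadillo-repeat protein that links desmosomal cadherins to desmoplakin and the intermediate filaments at the intercalated disc, where neighboring cardiomyocytes are coupled mechanically and electrically. Loss-of-function mutations in PKP2 are a frequent cause of arrhythmogenic right ventricular cardiomyopathy, in which cardiomyocytes are lost, fibrous and fatty tissue takes their place, and the LV can also be affected. A ventricle under load or injury typically returns to a fetal pattern of transcription, with natriuretic peptides and beta myosin heavy chain up and genes of fatty acid oxidation down, while fibroblasts lay down matrix.

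After the 37 mitochondrially encoded genes had been left out, the 15 libraries held 6947641 to 10238813 counts. Levels are CPM, the counts per 1e+06 of a library's total once that total was scaled by its TMM factor, with the SD over animals, fold changes are on the log2 scale with their SE, and a gene was called where its adjusted p-value in the edgeR quasi-likelihood test was under 0.05. Mitochondrially encoded genes took 29.3 ± 7.89% of counts in late-dosed LV (SD, n = 6) and 35.6 ± 4.45% in WT LV (n = 9), a difference that did not pass an exact two-sided permutation test (p = 0.0735). Without late-5814 the exact permutation p was 0.01798 and without WT-5803 it was 0.0406, both with the lower share in late-dosed LV. The lowest share, 16.6%, was in late-5810. Judged by Xist and Y-linked counts, 3 of 6 late-dosed and 5 of 9 WT animals were female. All 13 markers of ventricular cardiomyocytes were tested, and their summed level ran from 38138 to 59075 CPM in late-dosed LV and from 54699 to 63652 CPM in WT LV. Of 11 atrial markers 4 passed the filter on low counts, and the summed level of all 11 ran from 57.1 to 158 CPM in late-dosed and from 58.3 to 71.2 CPM in WT LV. Animal late-5755 held the highest atrial sum, with Myl7, the atrial myosin light chain, at 14.7 CPM, Myl4 at 31.9 CPM and sarcolipin (Sln) at 6.43 CPM. In the other 5 late-dosed animals Myl7 did not exceed 0.3705 CPM. These are bulk samples, in which fewer cells of a type and less RNA per cell cannot be told apart.

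Pkp2 was far above the WT level in every late-dosed LV. It stood at 3344 CPM in late-5755, 1005 in late-5801, 2704 in late-5806, 626 in late-5807, 4798 in late-5810 and 1442 in late-5814, and at 162 to 220.0 CPM (median 195) in the 9 WT LV. The groups did not overlap, and the late-dosed animals themselves spread widely, with late-5807 lowest and late-5810 highest. The difference was 3.60 ± 0.32 on the log2 scale (SE; 12.2-fold; adjusted p = 3.24e-05). Mean log2(CPM + 1) differed by 3.26 in an exact two-sided permutation test (p = 0.0004, the smallest this design can give). Untreated cKO LV held 68.2 ± 24.3 CPM (SD, n = 4) and early-dosed LV 1415 ± 692 CPM (n = 5). With only the 4 WT animals numbered from 5700 up the difference was 3.60 with an edgeR adjusted p of 0.146. The gene lies on chr16:16031144-16090586 (GRCm39). The level includes the vector's transcripts, in amounts that gene counts do not separate.

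None of the tested partners of Pkp2 in the desmosome passed the test. Dsg2, lower in late-dosed LV, was nearest to the threshold. The list member Tmem43 came next and went the other way (log2 fold change 0.60 ± 0.16, adjusted p = 0.0639). Of the 11 desmosome symbols 9 were tested, Pkp2 was the one called, and the list's median log2 fold change was 0.10 beside 0.01 over all genes. DESeq2 and voom each called 2 members of this list higher and 1 lower. Desmoplakin (Dsp), which anchors the desmosome to desmin, stood at 2661 ± 579 CPM in late-dosed against 2481 ± 203 CPM in WT LV (adjusted p = 0.651), and plakoglobin (Jup) at 247 ± 33.3 CPM in late-dosed against 232 ± 37.8 CPM in WT (adjusted p = 0.677). The desmosomal cadherin Dsg2 ran from 129 to 228 CPM (median 181) in late-dosed and 219.6 to 314 CPM (median 255) in WT LV, with late-5814 the one late-dosed animal inside the WT range (log2 fold change -0.45 ± 0.11, adjusted p = 0.0577). Dsg2 was called lower with DESeq2 (adjusted p = 0.00785), effective length offsets (adjusted p = 0.04205) and voom (adjusted p = 0.0403), and in edgeR without WT-5803, late-5807 or late-5814 (adjusted p = 0.0451, 0.0485 and 0.0304). The other cadherin, Dsc2, gave a log2 fold change of -0.27 ± 0.10 (adjusted p = 0.163), and Pkp4, a related plakophilin, gave a log2 fold change of -0.11 ± 0.07 (adjusted p = 0.477). None of 21 tested genes of the gap junction and intercalated disc was called, and their median was 0.02.

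**Figure D1:**
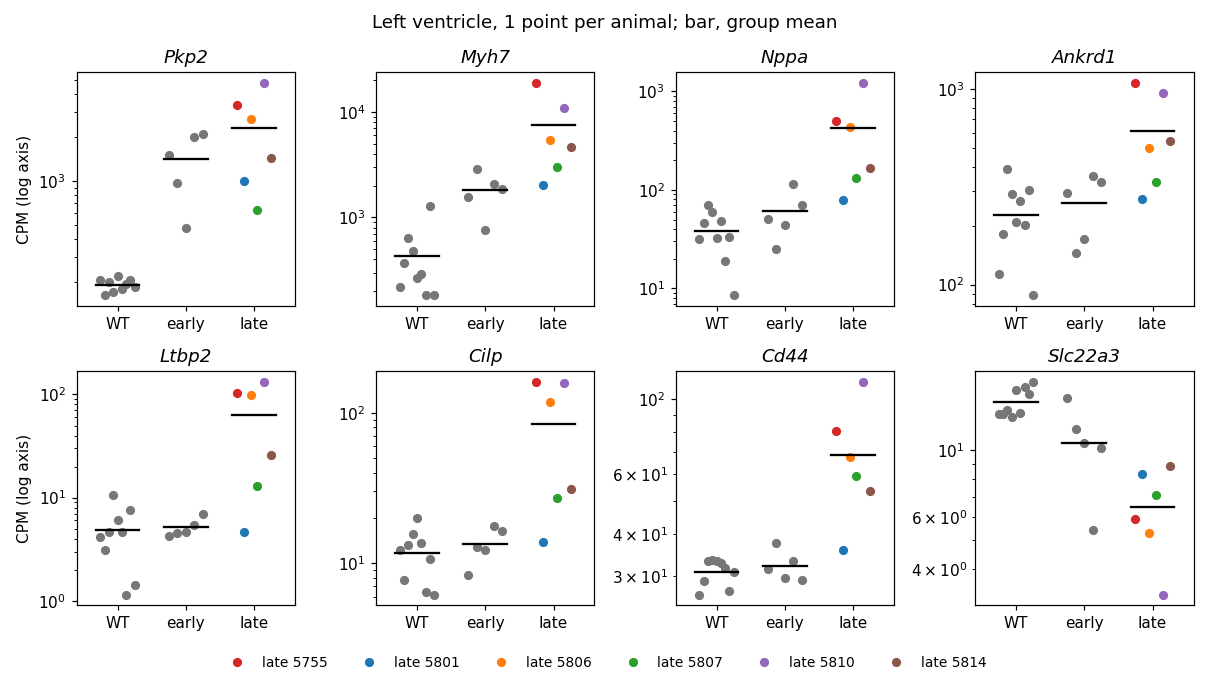
Levels of 8 transcripts in WT, early-dosed and late-dosed left ventricles, on log axes in CPM; each point is 1 animal, colored points are the 6 late-dosed animals and black bars are group means. Pkp2 lay between 626 and 4798 CPM in late-dosed animals, all above the highest WT value of 220.0 CPM, and late-5755, late-5806 and late-5810 were the highest 3 for Ltbp2 and Cilp.

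Across the transcriptome 198 of 13274 genes were called (1.49%), 114 higher (0.859%) and 84 lower (0.633%) in late-dosed LV. The rises were the larger changes, with 59 of them over 2-fold against 12 of the falls. The 2 groups' libraries did not overlap for 37 of the called genes, beside 57 of all tested genes (0.429%). The size of this list depended on single animals. It fell to 13 calls without late-5755, 28 without late-5810 and 63 without late-5806, and rose to 344 without late-5814. Leaving out WT-13, WT-2004, WT-2031, WT-2040, WT-5813 and WT-5823 in turn gave 54, 119, 111, 88, 53 and 48 calls, and leaving out WT-5803 gave 340. With only the 4 WT animals whose numbers fall in the range of the late-dosed animals' (from 5700 up), edgeR called 0 genes, with 1250 at an unadjusted p under 0.05. An unequal-variance test on log2(TPM + 1), called 0, with 2338 at an unadjusted p under 0.05, while DESeq2 called 626. Of the 198 calls 57.6% were higher, against 77.8% of 167 with library totals in place of TMM factors, 67.98% of 203 with all 32 LV libraries in one fit and 86.96% of 23 with limma on log2(TPM + 1). The genes called in all 15 fits that left out 1 animal numbered 12, namely Pkp2, Myh7, Nppa, Cd44, Cilp, Ltbp2, Sfrp2, Mfap5, Svep1 and Zfp697 among the rises and Slc22a3 and Abca12 among the falls. Of the 76 called genes named in the text other than Pkp2, 12 kept their call without late-5755 and 18 without late-5810, and none changed direction in any of the 28 alternatives.

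The late-dosed animals did not contribute equally. Among the 114 genes called higher, the highest late-dosed library was late-5810 for 51 genes, late-5755 for 36 and late-5806 for 18, and one of late-5801, late-5807 and late-5814 for the remaining 9. Animal late-5801 exceeded every WT library for 41 of these genes, late-5807 for 72 and late-5810 for 112. Among the 84 genes called lower, the lowest late-dosed library was late-5810 for 38 genes, late-5755 for 34 and late-5806 for 7. Set against the WT libraries, late-5801 lay below every one for 73 of these genes, late-5814 for 40 and late-5755 for 83. Since the genes were called on these same libraries, the counts describe where the calls came from and test nothing.

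**Figure D2:**
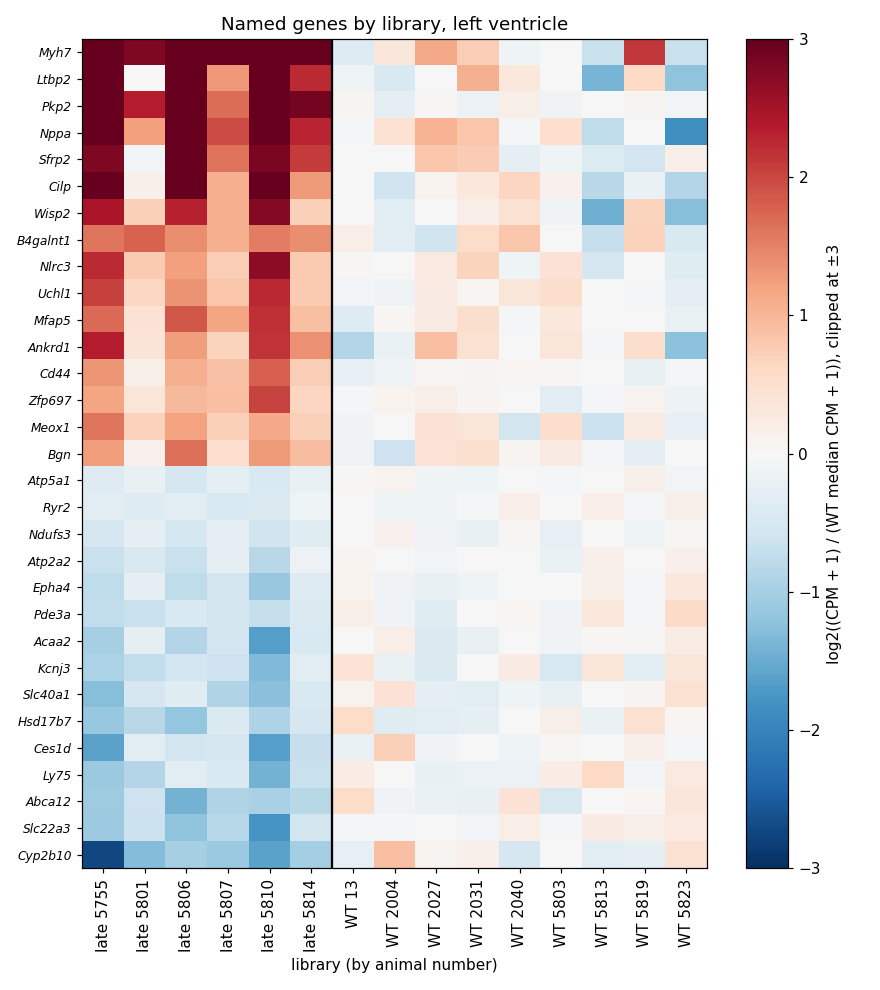
Named genes (rows) in each left ventricle library (columns, by animal number; late-dosed left of the line), as the log2 ratio of CPM + 1 to the WT median CPM + 1, clipped at 3 in either direction. The rises are deepest in late-5755, late-5806 and late-5810 and faintest in late-5801, and the falls run through all 6 late-dosed animals.

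Genes of heart stress were among the rises. Of 20 tested genes on the list of natriuretic peptides and heart stress 6 rose and none fell, with a list median of 1.04 on the log2 scale, and 2 stayed called without late-5755. Myh7, the slow beta myosin heavy chain of the fetal mouse ventricle, had the largest log2 fold change of the genes named here. The gene (chr14:55208141-55232084) stood at 18886 CPM in late-5755, 2036 in late-5801, 5412 in late-5806, 2966 in late-5807, 10729 in late-5810 and 4619.8 in late-5814, against 183 to 1272 CPM (median 290.4) in WT (log2 fold change 4.11 ± 0.52, adjusted p = 0.00256). All 6 late-dosed values lay above all 9 WT values, of which WT-5819 was the highest. Myh6, the fast alpha isoform that dominates the adult mouse ventricle, stood at 15156 ± 2994 CPM in late-dosed against 18864 ± 1941 CPM in WT (adjusted p = 0.199). Per transcript length (TPM), Myh7 made up 24.8 ± 16.01% of both myosins in late-dosed LV, from 7.96% in late-5801 to 50.1% in late-5755, and 1.67 ± 1.15% in WT LV. On counts the same shares were 30.1 ± 18.7% and 2.18 ± 1.51%. The 2 genes are close paralogs, so reads could be split between them with error.

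Nppa (chr4:148085091-148086583), which encodes atrial natriuretic peptide, was 496 CPM in late-5755, 78.6 in late-5801, 433 in late-5806, 131 in late-5807, 1234 in late-5810 and 166 in late-5814, against 8.47 to 69.6 CPM (median 33.2) in WT (log2 fold change 3.45 ± 0.52, adjusted p = 0.00998). Every late-dosed animal was above every WT animal, late-5801 by the smallest margin. Nppa is also abundant in atria. Without late-5755, the library with atrial transcripts, its log2 fold change was 3.40 (adjusted p = 0.0343). Nppb, the brain natriuretic peptide gene, overlapped between the groups, with 193 ± 145 CPM in late-dosed against 86.9 ± 52.002 CPM in WT (log2 fold change 1.15 ± 0.42, adjusted p = 0.168). Ankrd1, a titin-binding protein induced by stretch, ran from 274 to 1082 CPM (median 523) in late-dosed and 88.04 to 393 CPM (median 209) in WT LV (log2 fold change 1.44 ± 0.32, adjusted p = 0.0384). Rcan1, an inhibitor and target of calcineurin, ran from 14.8 to 167 CPM (median 57.1) and 6.62 to 34.8 CPM (median 17.5) (log2 fold change 1.97 ± 0.44, adjusted p = 0.0365), and late-5801 and late-5807 lay within the WT range for both genes. Osteopontin (Spp1) gave a log2 fold change of 3.48 ± 0.74 (adjusted p = 0.0312), from levels of at most 16.04 CPM, and endothelin-3 (Edn3) gave a log2 fold change of 1.36 ± 0.33 (adjusted p = 0.04900). The calls for Ankrd1, Rcan1, Spp1 and Edn3 were each lost without late-5755, with adjusted p = 0.115, 0.114, 0.0978 and 0.159.

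The promoters of 3 of these called genes are shown because all 3 were called higher in late-dosed LV, as the 250 bases before the transcription start in the RefSeq promoter set of build GRCm38.p6, which is not the build of the counts. All 3 matched that set by symbol, and for Myh7 the first of its listed starts was taken. Sequences run 5′ to 3′ on the gene's strand. Capitals mark matches, on either strand, to CATTCC (the core of the element bound by TEAD factors), to AGATAA (an element bound by Gata4 and its relatives) and to TATAAA (the box that binds the basal transcription machinery); no matches overlapped.
Nppa promoter, chr4:148000472-148000721 (+ strand): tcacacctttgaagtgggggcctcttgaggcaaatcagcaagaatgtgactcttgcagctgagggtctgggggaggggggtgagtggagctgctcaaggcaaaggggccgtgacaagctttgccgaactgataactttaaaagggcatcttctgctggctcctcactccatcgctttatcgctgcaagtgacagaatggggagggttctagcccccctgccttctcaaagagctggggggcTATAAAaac
Myh7 promoter, chr14:54994627-54994876 (- strand): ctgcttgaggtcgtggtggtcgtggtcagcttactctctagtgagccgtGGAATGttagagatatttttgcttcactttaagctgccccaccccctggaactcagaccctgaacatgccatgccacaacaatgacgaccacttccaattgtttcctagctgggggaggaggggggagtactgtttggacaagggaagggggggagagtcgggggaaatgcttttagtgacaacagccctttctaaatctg
Ankrd1 promoter, chr19:36119845-36120094 (- strand): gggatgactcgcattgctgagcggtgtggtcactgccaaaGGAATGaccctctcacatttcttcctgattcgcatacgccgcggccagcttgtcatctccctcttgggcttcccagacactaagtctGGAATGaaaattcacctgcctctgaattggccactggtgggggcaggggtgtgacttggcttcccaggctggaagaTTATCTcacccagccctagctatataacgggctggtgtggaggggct
Ankrd1 held 2 matches to CATTCC and 1 to AGATAA, Myh7 held 1 to CATTCC, and Nppa held 1 to TATAAA. Only these exact strings were searched for, and variant forms of the elements were left unmarked. Of all 32851 promoters in the set, 12.6% held CATTCC, 9.99% AGATAA and 12.4% TATAAA in the same 250 bases, so such matches are common, and binding was not measured.

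Fibroblast and matrix genes formed the largest group of rises. On the list of activated fibroblast genes 12 of 20 tested members rose and 0 fell, with a median of 0.96. The number called was 3 without late-5755 and 5 without late-5810. The list's summed level was 1603 CPM in late-5755, 677 in late-5801, 1708 in late-5806, 772 in late-5807, 1613 in late-5810 and 851 in late-5814, against 582 to 856 CPM in WT. Animal late-5755, late-5806 and late-5810 stood far above the WT range and the other 3 within it. Ltbp2, a microfibril-associated protein, followed that split, with 102, 99.9 and 133 CPM in those 3 animals, 25.6 in late-5814, 12.9 in late-5807 and 4.66 in late-5801, against 1.15 to 10.7 CPM (median 4.63) in WT (log2 fold change 3.71 ± 0.60, adjusted p = 0.0103). Cilp, a cartilage matrix protein also made by cardiac fibroblasts, ran from 13.9 to 161 CPM (median 74.9) in late-dosed LV, where late-5801 lay within the WT range, and 6.18 to 19.9 CPM (median 12.3) in WT (log2 fold change 2.87 ± 0.46, adjusted p = 0.0103). Sfrp2, a secreted Wnt modulator, ran from 3.11 to 79.5 CPM (median 23.4) and 1.92 to 6.73 CPM (median 3.34) (log2 fold change 2.95 ± 0.48, adjusted p = 0.0103). Tenascin C (Tnc), a matrix glycoprotein of injured tissue, ran from 3.25 to 30.3 CPM (median 15.8) and 2.005 to 6.46 CPM (median 3.54) (log2 fold change 2.11 ± 0.37, adjusted p = 0.0144). Meox1, a homeobox factor of activated fibroblasts, did not overlap between the groups, with 24.99 ± 7.11 CPM in late-dosed against 12.1 ± 3.67 CPM in WT (log2 fold change 1.06 ± 0.21, adjusted p = 0.0253). Periostin (Postn), Comp and Thbs4, chosen after their values were seen, gave log2 fold changes of 1.33, 3.71 and 3.38 with adjusted p = 0.0185, 0.0144 and 0.0189.

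All 28 tested genes of the fibrillar collagen and matrix list had a positive log2 fold change, with a median of 0.71, and 7 were called. The number called ranged from 1 without late-5755 to 17 over the 15 fits with 1 animal left out, and the median from 0.62 to 0.81. The microfibril protein Mfap5 ran from 19.8 to 69.4 CPM (median 41.3) in late-dosed and 10.7 to 21.02 CPM (median 14.3) in WT LV (log2 fold change 1.49 ± 0.22, adjusted p = 0.00998), with late-5801 the one animal inside the WT range. Fibulin-2 (Fbln2) was 159.8 ± 51.1 CPM in late-dosed against 82.99 ± 18.1 CPM in WT (log2 fold change 0.95 ± 0.18, adjusted p = 0.0189), fibronectin (Fn1) was 206 ± 59.03 CPM in late-dosed against 124 ± 20.3 CPM in WT (log2 fold change 0.74 ± 0.15, adjusted p = 0.0261) and fibrillin-1 (Fbn1) was 311 ± 53.2 CPM in late-dosed against 213 ± 31.3 CPM in WT (log2 fold change 0.55 ± 0.11, adjusted p = 0.0287). Of the small leucine-rich proteoglycans 3 of 10 rose. Biglycan (Bgn) was 1081 ± 393 CPM in late-dosed against 543 ± 125 CPM in WT (log2 fold change 1.00 ± 0.20, adjusted p = 0.0273). Fibromodulin (Fmod) was 28.6, 24.2 and 17.7 CPM in late-5755, late-5806 and late-5810 but 0.989 in late-5801 and 1.49 in late-5807, within the WT range of 0.824 to 3.29 (log2 fold change 2.74 ± 0.58, adjusted p = 0.0298). Prelp gave a log2 fold change of 0.76 ± 0.17 (adjusted p = 0.0376). In the same libraries 3 of 15 resting fibroblast markers rose, Pi16 by 1.18, Cygb by 0.50 and Mfap5 as above, and the summed level of that list was 1608 to 2658 CPM in late-dosed and 1448 to 1947 CPM in WT LV. More fibroblasts and more transcript per fibroblast cannot be told apart.

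Of the 5 genes that the study also followed by RT-qPCR, Nppa was called here and Nppb, Col1a1, Col3a1 and Timp1 were not. Col1a1, the alpha 1 chain of type I collagen, ran from 56.1 to 274 CPM (median 120.3) in late-dosed and 34.5 to 135 CPM (median 61.8) in WT LV (log2 fold change 1.04 ± 0.31, adjusted p = 0.1003). Col3a1 of type III collagen ran from 158 to 448 CPM (median 253) and 107 to 343 CPM (median 161) (log2 fold change 0.65 ± 0.24, adjusted p = 0.171). Timp1, an inhibitor of matrix metalloproteinases, ran from 0.871 to 11.04 CPM (median 2.31) and 0.517 to 3.65 CPM (median 1.29) (log2 fold change 1.51 ± 0.50, adjusted p = 0.131). For each of the 3 genes the highest late-dosed animal was late-5755 and the groups overlapped. Without WT-5803, the highest WT animal for all 3, Col1a1 differed by 1.24 (edgeR adjusted p = 0.0357) and Col3a1 by 0.83 (edgeR adjusted p = 0.0438) on the log2 scale, and without late-5801 Col1a1 differed by 1.19 (edgeR adjusted p = 0.0473). Untreated cKO LV, which were younger, held 1419.9 ± 896 CPM of Col1a1, 2279 ± 955 CPM of Col3a1 and 48.2 ± 47.5 CPM of Timp1 (SD, n = 4).

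Few regulators of matrix and growth signaling were called. On the TGF-beta list 2 of 30 tested members rose and 0 fell (median 0.37), namely Ltbp2 and follistatin-like 1 (Fstl1, log2 fold change 0.69 ± 0.14, adjusted p = 0.0286). On the Hippo and Wnt list 4 of 36 tested members rose and 0 fell, and the risen members were the secreted Wnt modulators Sfrp2, Sfrp1, Frzb and Dkk3, with log2 fold changes of 2.95, 0.86, 1.29 and 2.04. These members are extracellular antagonists or modulators, and Sfrp1 and Sfrp2 also stand on the activated fibroblast list and Dkk3 on the atrial list. Dkk3 was 37.6 CPM in late-5755, 38.03 in late-5806 and 40.97 in late-5810. The atrial gene Myl7 was 14.7, 0.3705 and 0.2197 CPM in the same 3 animals. In these animals Sln was 6.43, 0 and 0.330 CPM and Myl4 was 31.9, 1.11 and 3.51 CPM. Dhrs9, also on the atrial list, was 3.32, 2.10 and 3.19 CPM. The highest WT values were 0.136 CPM for Myl7, 0.271 for Sln, 1.23 for Myl4 and 1.44 for Dhrs9. The source of the Dkk3 rise was not tested. Ace, the angiotensin-converting enzyme, rose (185 ± 54.5 CPM in late-dosed against 108 ± 26.4 CPM in WT, log2 fold change 0.79 ± 0.18, adjusted p = 0.0393), and Pde3a, the phosphodiesterase that degrades cyclic AMP in cardiomyocytes, fell without overlap, 176 to 219 CPM (median 194) against 232 to 439 CPM (median 297) (log2 fold change -0.67 ± 0.12, adjusted p = 0.0144). No other gene among 18 tested adrenergic and angiotensin genes was called. Ccnd2, cyclin D2 of the G1 phase, was the one called gene of 23 proliferation genes (log2 fold change 0.58 ± 0.11, adjusted p = 0.0189), and Zmat3, a p53 target, the one of 21 on its list (log2 fold change 0.49 ± 0.10, adjusted p = 0.0285).

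**Figure D3:**
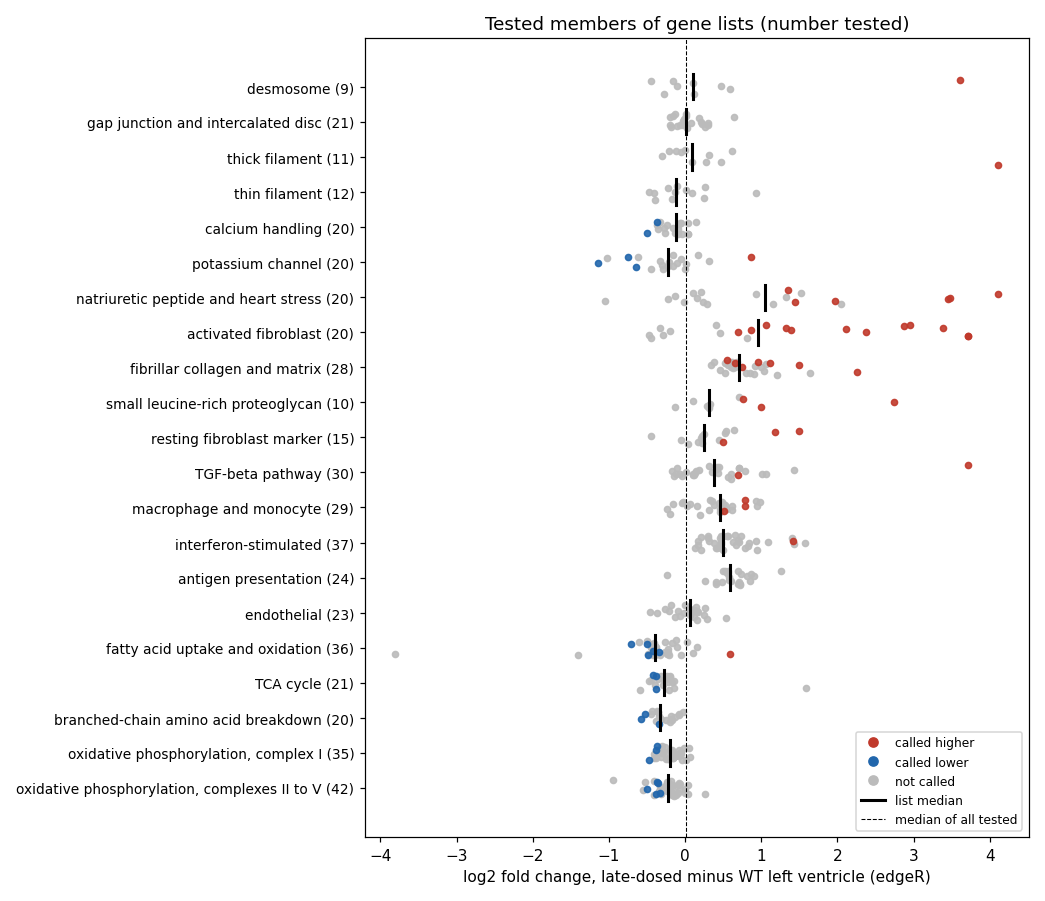
Log2 fold changes (edgeR, late-dosed minus WT left ventricle) of the tested members of 21 gene lists, 1 point per gene, red where called higher and blue where called lower; bars are list medians and the dashed line is the median of all tested genes. The medians of heart stress (1.04) and activated fibroblast genes (0.96) lie farthest to the right and that of fatty acid uptake and oxidation (-0.39) farthest to the left.

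The other large rises without overlap were in genes of varied function. Cd44, the hyaluronan receptor found on fibroblasts and leukocytes, was 35.8 to 113 CPM (median 63.5) in late-dosed and 26.4 to 33.5 CPM (median 31.8) in WT LV (log2 fold change 1.15 ± 0.17, adjusted p = 0.00998). Wisp2, a CCN-family matricellular protein, was 3.53 to 17.6 CPM (median 8.72) and 0 to 3.37 CPM (median 1.75) (log2 fold change 2.51 ± 0.54, adjusted p = 0.0314), so the lowest late-dosed and the highest WT value nearly met. B4galnt1, a ganglioside-synthesizing enzyme, was 4.35 to 7.63 CPM (median 6.04) against 0.573 to 3.54 CPM (median 1.54) (log2 fold change 1.78 ± 0.35, adjusted p = 0.0253). Nlrc3, an NLR-family regulator, gave a log2 fold change of 1.67 ± 0.31 (adjusted p = 0.0185), Uchl1, a deubiquitinase of neurons, gave a log2 fold change of 1.59 ± 0.27 (adjusted p = 0.0141), and the zinc finger gene Zfp697 gave a log2 fold change of 1.15 ± 0.18 (adjusted p = 0.0103). Uchl1 was the one called gene of 10 Schwann cell and neuron markers, whose median was 0.00. Svep1, a large extracellular matrix protein chosen after its values were seen, gave a log2 fold change of 1.37 ± 0.22 (adjusted p = 0.0103).

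Immune gene lists had positive medians, and few of their members were called. Of 29 macrophage and monocyte markers 3 rose, the integrin Itgb2 (0.79), cathepsin S (Ctss, 0.78) and the Fc receptor gamma chain (Fcer1g, 0.51), and the list median was 0.45. None of the 3 stayed called without late-5755. All 37 tested interferon-stimulated genes had a positive log2 fold change, with a median of 0.50 that ranged from 0.41 to 0.65 when 1 animal was left out, but Zbp1, a sensor of Z-form nucleic acid, was the one gene called (9.199 ± 3.87 CPM in late-dosed against 3.47 ± 1.87 CPM in WT, log2 fold change 1.41 ± 0.33, adjusted p = 0.0436). The summed level of the interferon list was 2747 CPM in late-5807, 1948 in late-5801, 1702 in late-5810, 1239 in late-5814, 1138 in late-5755 and 1123 in late-5806, against 862 to 1570.2 CPM in WT. Animal late-5807 and late-5801, which were within the WT range for activated fibroblast genes, were the highest here, and late-5755 and late-5806, high for fibroblast genes, were within the WT range. The other animals did not follow this split, since late-5810 was above the WT range on both lists and late-5814 within it on both. Antigen presentation genes had a median of 0.59 with none of 24 called. Their summed level was 1624 to 2846 CPM in late-dosed LV, all above the WT range of 1112 to 1601 CPM, and again highest in late-5807. Of its 2 members with the highest CPM, H2-D1, a class I heavy chain, gave a log2 fold change of 0.72 ± 0.19 (adjusted p = 0.0607) and was called higher with DESeq2, effective length offsets, voom and all 32 LV libraries (adjusted p = 0.00655 to 0.0373) and in edgeR without WT-5803, WT-5819 or late-5814 (adjusted p = 0.0354, 0.0422 and 0.0404), and beta-2 microglobulin (B2m) gave a log2 fold change of 0.40 ± 0.16 (adjusted p = 0.212). No member of the complement list (20 tested, median 0.48), the chemokine and cytokine list (21, 0.44), the DNA and virus sensing list (22, 0.26) or the lymphocyte list (6, 0.36) was called.

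Genes of energy metabolism lay lower by small amounts in late-dosed LV, and few of them were called. Of 36 tested genes of fatty acid uptake and oxidation 5 fell and 1 rose, 32 had a negative log2 fold change and the median was -0.39. None was called without late-5755 and 14 were in the fit with the most calls after 1 animal was left out, while the median stayed between -0.46 and -0.30. Acaa2, the mitochondrial thiolase that ends a round of beta-oxidation, ran from 124 to 329 CPM (median 241) in late-dosed and 289.9 to 458 CPM (median 394) in WT LV (log2 fold change -0.71 ± 0.16, adjusted p = 0.0419). Echs1, the enoyl-CoA hydratase, fell to 116 ± 11.02 CPM in late-dosed against 148 ± 10.4 CPM in WT (log2 fold change -0.34 ± 0.07, adjusted p = 0.0287), and Etfdh, which passes electrons from beta-oxidation to ubiquinone, to 446 ± 88.4 CPM in late-dosed against 634 ± 79.6 CPM in WT (log2 fold change -0.50 ± 0.12, adjusted p = 0.0436). The member that rose was Ucp2, an uncoupling protein of the inner membrane that is abundant in macrophages and other immune cells (91.5 ± 17.4 CPM in late-dosed against 61.2 ± 7.897 CPM in WT, log2 fold change 0.59 ± 0.12, adjusted p = 0.0273). Lipoprotein lipase (Lpl), which frees fatty acids for uptake, fell to 5933 ± 1111 CPM in late-dosed against 8380.3 ± 1144 CPM in WT (log2 fold change -0.49 ± 0.12, adjusted p = 0.0463), and it was the one called gene among both the ventricular cardiomyocyte markers (13 tested, median -0.18) and the adipocyte markers (8, -0.38).

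The medians of the other mitochondrial pathways were negative too. In the TCA cycle 3 of 21 fell (median -0.27): Dlat, the E2 subunit of pyruvate dehydrogenase, by 0.39, the succinyl-CoA ligase subunit Suclg1 by 0.38 and fumarase (Fh1) by 0.42 on the log2 scale. All 20 tested genes of branched-chain amino acid breakdown had a negative log2 fold change (median -0.33) and 3 were called, the semialdehyde dehydrogenase Aldh6a1 (log2 fold change -0.58 ± 0.12, adjusted p = 0.0287), the phosphatase Ppm1k that switches on the branched-chain ketoacid dehydrogenase (log2 fold change -0.53 ± 0.12, adjusted p = 0.0372) and Hibadh (log2 fold change -0.35 ± 0.08, adjusted p = 0.0413). Of complex I genes 3 of 35 fell and 32 were negative (median -0.20). Ndufs3 of complex I was 107 to 134 CPM (median 119.6) in late-dosed and 137 to 178 CPM (median 162) in WT LV, with no overlap (log2 fold change -0.37 ± 0.08, adjusted p = 0.0278), Ndufc1 gave -0.47 and Ndufs1 -0.38. Of complexes II to V 5 of 42 fell and 38 were negative (median -0.22). The ATP synthase alpha subunit Atp5a1 did not overlap, 1906 to 2327 CPM (median 2139.8) against 2481 to 2991 CPM (median 2706) (log2 fold change -0.33 ± 0.07, adjusted p = 0.03803), nor did Atp5l (log2 fold change -0.35 ± 0.07, adjusted p = 0.0275). Uqcrc2 of complex III fell by 0.38 and Sdha of complex II by 0.50 on the log2 scale. In each of these 4 lists no member stayed called without late-5755 or without late-5810, and the medians stayed below 0 in all 15 fits with 1 animal left out. In glycolysis the 2 called genes went opposite ways, the phosphofructokinase Pfkp up (117 ± 25.2 CPM in late-dosed against 65.9 ± 12.6 CPM in WT, log2 fold change 0.84 ± 0.14, adjusted p = 0.0141) and Pfkfb1, which makes its activator, down (19.4 ± 6.39 CPM in late-dosed against 36.9 ± 7.398 CPM in WT, log2 fold change -0.92 ± 0.20, adjusted p = 0.0324).

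Genes of calcium cycling and repolarization were among the falls. Atp2a2, the sarcoplasmic reticulum calcium pump SERCA2, ran from 8553 to 13488 CPM (median 10339) in late-dosed and 13296 to 17047 CPM (median 15228) in WT LV, with late-5814 the highest late-dosed animal (log2 fold change -0.50 ± 0.10, adjusted p = 0.0286). Ryr2, the calcium release channel, ran from 4794 to 6027 CPM (median 5114) and 5995 to 7523 CPM (median 6591) (log2 fold change -0.37 ± 0.08, adjusted p = 0.0376), late-5814 again being the one inside the WT range. They were the only called genes of 20 tested for calcium handling (median -0.11). Of 20 potassium channel genes 3 fell and 1 rose (median -0.22). Kcnj2, which carries the inward rectifier current, fell to 132 ± 23.8 CPM in late-dosed against 209 ± 54.4 CPM in WT (log2 fold change -0.65 ± 0.16, adjusted p = 0.0471), Kcnj3 of the acetylcholine-activated channel to 149 ± 33.5 CPM in late-dosed against 253 ± 63.04 CPM in WT (log2 fold change -0.75 ± 0.17, adjusted p = 0.03898) and the modifier subunit Kcnv2 to 13.9 ± 4.55 CPM in late-dosed against 30.8 ± 10.7 CPM in WT (log2 fold change -1.14 ± 0.25, adjusted p = 0.0368). Kcna4, which carries the slow component of the transient outward current, rose to 12.8 ± 2.65 CPM in late-dosed against 7.05 ± 1.73 CPM in WT (log2 fold change 0.86 ± 0.18, adjusted p = 0.0287). The calcium and potassium calls were lost without late-5755 in all 6 cases. The Kcna4 value of late-5806, 7.66 CPM, stood below those of the other 5 late-dosed animals and within the WT range. None of 8 sodium channel genes, 12 thin filament genes or 19 cardiac transcription factors was called.

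Of the called falls without overlap and with at least 5 CPM in the higher group, the largest besides Pde3a lay outside these lists. Slc22a3, an organic cation transporter, was 3.295 to 8.88 CPM (median 6.49) in late-dosed and 12.9 to 16.9 CPM (median 13.6) in WT LV (log2 fold change -1.16 ± 0.18, adjusted p = 0.0103). Abca12, a lipid transporter, was 10.002 to 18.2 CPM (median 14.3) and 20.2 to 41.7 CPM (median 28.4) (log2 fold change -1.06 ± 0.17, adjusted p = 0.0103). Both stayed called in all 15 fits with 1 animal left out. Cyp2b10, a cytochrome P450, fell the most of these on the log2 scale, from 9.05 ± 3.38 CPM to 2.68 ± 1.26 CPM (log2 fold change -1.75 ± 0.35, adjusted p = 0.0253). Hsd17b7, an enzyme of cholesterol synthesis, fell by 0.87, the carboxylesterase Ces1d by 0.88, the endocytic receptor Ly75 by 1.00, the iron exporter ferroportin (Slc40a1) by 0.81 and the ephrin receptor Epha4 by 0.64 on the log2 scale, with adjusted p from 0.0155 to 0.0449.

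Several groups of genes held no call. Among other cell types the median log2 fold change was 0.06 for 23 endothelial genes, -0.21 for 15 smooth muscle and pericyte genes, 0.27 for 4 epicardial and mesothelial genes, 0.08 for 5 erythrocyte genes, -0.04 for 3 skeletal muscle genes and 0.26 for 3 neutrophil and mast cell genes. Among housekeeping systems it was 0.19 for 37 genes of the cytosolic ribosome, -0.08 for 31 of the mitochondrial ribosome, -0.02 for 29 of the proteasome and ubiquitin system, 0.03 for 19 of the circadian clock, -0.16 for 21 regulators of energy metabolism and 0.01 for 29 of the integrin, laminin and dystrophin complexes. Among stress and signaling responses it was 0.44 for 20 genes of the integrated stress response, 0.04 for 23 of the unfolded protein response and chaperones, 0.34 for 21 immediate early genes and 0.19 for 15 of the gp130 cytokine response. In the integrated stress response, which lowers translation and induces Atf4 targets, 15 of 20 values were positive, and in the cytosolic ribosome 32 of 37. Myh7 was the one called gene of 11 thick filament genes (median 0.09) and Ankrd1 of 16 genes of the Z-disc and stretch response (0.18).

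No relation between Pkp2 and 6 stress and matrix genes among the 6 late-dosed LV passed after adjustment. On log2(CPM + 1), Nppa gave Pearson r = 0.924 (exact permutation p = 0.0153, adjusted p = 0.0917) and Spearman rho = 0.943 (exact permutation p = 0.0167, adjusted p = 0.1). Myh7 gave r = 0.842 (exact permutation p = 0.0417, adjusted p = 0.106) and rho = 0.886 (exact permutation p = 0.0333, adjusted p = 0.1). Col1a1 gave r = 0.821 and rho = 0.771 (exact permutation p = 0.0528 and 0.103, adjusted p = 0.106 and 0.206). For Nppb, Col3a1 and Timp1, r was 0.713, 0.724 and 0.6305 and rho 0.429, 0.657 and 0.657 (exact permutation p = 0.151, 0.114 and 0.188 for r and 0.419, 0.175 and 0.175 for rho, adjusted p = 0.182, 0.171 and 0.188 for r and 0.419, 0.21 and 0.21 for rho). Without late-5807 and late-5810, whose Pkp2 lay farthest from the median, r over the remaining 4 animals was 0.992 for Nppa, 0.895 for Myh7 and 0.622 for Nppb, and from 0.984 to 0.9998 for the other 3. All values come from the same libraries, and the share of mitochondrial counts, 25.3% in late-5755, 32.7% in late-5801, 32.4% in late-5806, 29.1% in late-5807, 16.6% in late-5810 and 39.9% in late-5814, was lowest in the 2 animals highest in Pkp2. Its part in the relations was not tested.

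**Figure D4:**
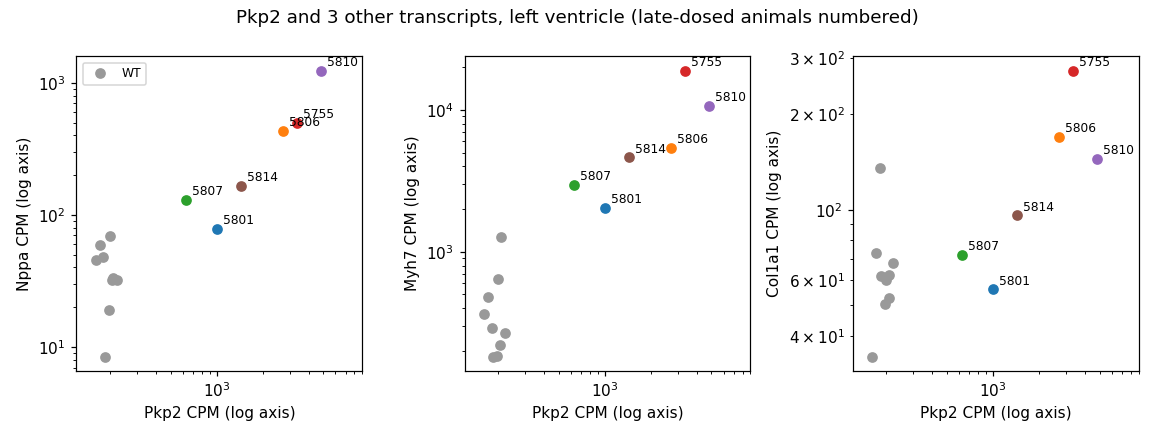
Pkp2 level (horizontal, CPM, log axis) against Nppa, Myh7 and Col1a1 (vertical, CPM, log axis) in each left ventricle; gray points are WT animals and numbered colored points are the 6 late-dosed animals. Animal late-5755, late-5806 and late-5810, with 3344, 2704 and 4798 CPM of Pkp2, are also the highest 3 for all 3 genes.

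A direct test of late against early dosing at the same dose asked whether the time of dosing changed the LV. With edgeR 0 of 13234 genes were called (0%), 964 had an unadjusted p under 0.05, and DESeq2 called 54. Leaving out late-5801 gave 7 calls in edgeR, Ltbp2, Cd44, Pfkp, Dkk3 and Postn among them, and leaving out any other of the 11 animals gave 0. Pkp2 itself was 1415 ± 692 CPM in early-dosed LV, 477 to 2100.4 CPM (median 1503) (log2 difference 0.72 ± 0.49, unadjusted p = 0.169, adjusted p = 0.806; 95% interval -0.40 to 1.84). Myh7 ran from 755 to 2887 CPM (median 1839.8) in early-dosed LV, between the other groups' medians (log2 difference 2.04 ± 0.54, unadjusted p = 0.00219, adjusted p = 0.456). Nppa ran from 25.4 to 114 CPM (median 50.9) (log2 difference 2.80 ± 0.66, unadjusted p = 0.000944, adjusted p = 0.423), Ltbp2 4.27 to 6.88 CPM (median 4.64) (log2 difference 3.62 ± 0.74, unadjusted p = 0.000292, adjusted p = 0.423) and Cd44 29.2 to 37.5 CPM (median 31.5) (log2 difference 1.09 ± 0.23, unadjusted p = 0.000366, adjusted p = 0.423). Of the activated fibroblast list 14 members had an unadjusted p under 0.05, with a median log2 difference of 0.97 beside 0.01 over all genes, and of the matrix list 23 members, with a median of 0.63. In edgeR with all 11 animals none of these members passed the adjustment over all genes. Without late-5801 Ltbp2 and Postn passed it (adjusted p = 0.0387 for each). Members of both lists passed it in DESeq2, among them Ltbp2, Postn, Col3a1 and Mfap5 (adjusted p = 0.00156, 0.000411, 0.02400 and 0.0403).

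The difference between late-dosed and WT hearts was compared between the ventricles with an interaction contrast. It was called for 2592 of 14095 genes (18.4%), 1504 with the lower value in the LV (10.7%) and 1088 with the higher (7.72%). The rises of Pkp2, Myh7, Nppa, Ltbp2 and Cd44 were not called different between the ventricles. Pkp2 changed by 3.60 in the LV and 3.68 in the RV (difference -0.10 ± 0.40, adjusted p = 0.893), Myh7 by 4.11 in the LV and 5.00 in the RV (difference -0.90 ± 0.65, adjusted p = 0.359), Nppa by 3.45 in the LV and 2.37 in the RV (difference 1.08 ± 1.04, adjusted p = 0.521), Ltbp2 by 3.71 in the LV and 4.06 in the RV (difference -0.37 ± 0.77, adjusted p = 0.791) and Cd44 by 1.15 in the LV and 1.28 in the RV (difference -0.14 ± 0.25, adjusted p = 0.737). This fit had no block for the animal. With the animal as a block the difference for Nppa had the opposite sign, at -0.26 (adjusted p = 0.855), and was not called either. Several metabolic falls were among the genes that differed. Dlat changed by -0.39 in the LV and 0.41 in the RV (difference -0.82 ± 0.16, adjusted p = 0.000775), Aldh6a1 by -0.58 in the LV and 0.34 in the RV (difference -0.95 ± 0.18, adjusted p = 0.000689), Uqcrc2 by -0.38 in the LV and 0.35 in the RV (difference -0.76 ± 0.17, adjusted p = 0.00247) and Ndufs3 by -0.37 in the LV and 0.18 in the RV (difference -0.57 ± 0.13, adjusted p = 0.00373). Lower values in the LV were called for 15 of 35 complex I genes, 14 of 42 genes of complexes II to V, 10 of 22 TCA cycle genes and 11 of 36 fatty acid genes, and higher values for 0, 0, 1 and 2. Such calls were not confined to metabolic lists. Lower values were called for 13 of 29 proteasome and ubiquitin genes and 10 of 23 genes of the unfolded protein response and chaperones. They were also called for 9 of 22 calcium handling genes and 7 of 16 genes of the Z-disc and stretch response. Higher values in these 4 lists numbered 0, 0, 2 and 1. Of 23 endothelial genes 9 were called higher and 2 lower. Atp2a2 changed by -0.50 in the LV and 0.04 in the RV (difference -0.56 ± 0.17, adjusted p = 0.01796), Kcnj2 by -0.65 in the LV and 0.11 in the RV (difference -0.78 ± 0.20, adjusted p = 0.00697) and Lpl by -0.49 in the LV and 0.25 in the RV (difference -0.76 ± 0.20, adjusted p = 0.00721). Dsp and Dsc2 of the desmosome, not called in the LV alone, differed too, Dsp by 0.11 in the LV and 0.61 in the RV (difference -0.52 ± 0.14, adjusted p = 0.0117) and Dsc2 by -0.27 in the LV and 0.16 in the RV (difference -0.46 ± 0.14, adjusted p = 0.0238). Ankrd1 and Nppb moved less in the LV than in the RV, Ankrd1 by 1.44 in the LV and 2.77 in the RV (difference -1.35 ± 0.45, adjusted p = 0.03403) and Nppb by 1.15 in the LV and 3.02 in the RV (difference -1.88 ± 0.61, adjusted p = 0.0312). The RV library of late-5814 carried both Xist (263 CPM) and Y-linked transcripts (298 CPM summed). Its LV library carried Xist (3064 CPM) and 0 CPM of Y-linked transcripts. Without that animal 2284 genes were called, and the differences of Nppb, Ankrd1, Edn3, Fstl1, Ccnd2, Hsd17b7 and Dsc2 were no longer among them.

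**Figure D5:**
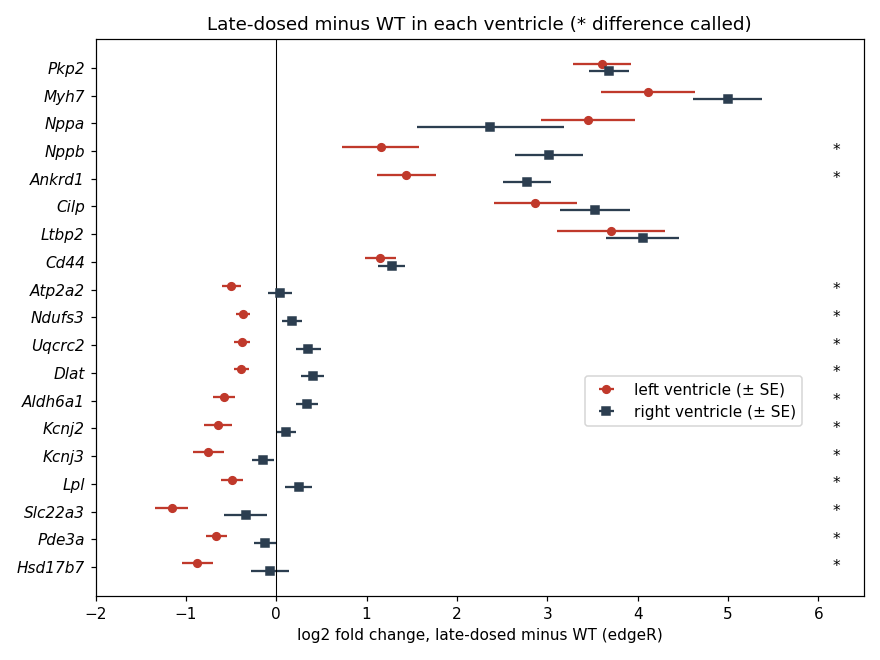
Log2 fold change of late-dosed minus WT (edgeR, with SE) for 19 genes in the left ventricle (circles) and the right ventricle (squares); asterisks mark genes whose difference between the ventricles was called. For Pkp2 the values are 3.60 and 3.68, whereas Dlat is below 0 in the left (-0.39) and above it in the right ventricle (0.41).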

How the data were processed

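RNA was extracted from left and right ventricles of 32 mice, and 64 libraries were sequenced. Per the labels and the study's methods the authors trimmed reads with fastp, quantified them with Salmon 1.8.0 against GENCODE transcripts on GRCm39 and summed transcripts to genes with tximport. The deposited table holds estimated counts, TPM values (corrected for transcript length) and effective lengths for each library. The labels name polyA RNA while the protocol names a ribosomal RNA depletion kit, so the selection is uncertain. Estimated counts were rounded, and 37 mitochondrially encoded genes and 1 row without a name (at most 0.00136% of counts) were left out. Library totals bound the precision, and lowly counted genes rest on few reads. edgeR 4.0.16 with TMM factors, filterByExpr and the quasi-likelihood test was fitted to the groups compared only, with Benjamini-Hochberg adjustment and a threshold of 0.05. CPM is not divided by transcript length, so it does not rank genes by level.

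Alternatives were DESeq2 1.42.0, RLE factors, library totals, other filters on low counts, effective length offsets, limma 3.58.1 (trend on log2(TPM + 1), and voom with quality weights), an unequal-variance test on log2(TPM + 1), all LV libraries in one fit, mitochondrially encoded genes kept, sex as a covariate and each animal left out in turn, and, chosen after seeing the data, WT animals numbered from 5700 up only. Per the labels the animal number pairs the ventricles, although the LV and RV libraries of late-5814 differed in Xist and Y-linked transcripts. As a check, deviations of paired LV and RV libraries from their group means had a median correlation of 0.1296 (-0.0479 to 0.253), over 0.1 in 11 of 15 animals. On simulated data for late against WT LV (13019 genes) the test recovered 37.3% of 1.5-fold, 88.1% of 2-fold and 98.5% of 4-fold changes.

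The comparison and the 54 gene lists were chosen with earlier results of these data known. Genes are named as Pkp2, the 5 genes the study measured by RT-qPCR, up to 10 called rises and 10 called falls with the largest fold change, at least 5 CPM in the higher group and no overlap, leaving out predicted and sex-linked genes, up to 4 called members with the smallest p per described list, or the 2 with the highest CPM where none was called, and any member of a list of at most 12. Permutation tests used scipy 1.17.1. Some genes that the rule names are not reported here.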

Additional observations from a re-analysis of the deposited data

Results flagged for a closer look

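In 14 of 180 sets of values (the named genes, within late-dosed or WT LV) the highest or lowest animal stood apart from the others by Dixon's criterion. Its nominal rate of about 5% holds for independent sets of normally distributed values. These sets come from the same animals and are on unlogged scales, so the share flagged cannot be read against that rate. Among late-dosed animals late-5810 stood high for Nppa (1234 CPM, the next animal at 496) and Zfp697 (169 CPM, next 93.5), and late-5755 for Edn3 (59.997 CPM, next 29.7). Animal late-5806 stood high for Sfrp2 (79.5 CPM, next 29.8) and low for Kcna4 (7.66 CPM, next 12.9), and late-5814 stood high for Ryr2 (6027 CPM, next 5256). Among WT animals WT-5803 stood high for Col1a1 (135 CPM, next 73.1), Col3a1 (343 CPM, next 219) and Zbp1 (7.86 CPM, next 4.31), and WT-5819 for Myh7 (1272 CPM, next 638) and Edn3 (21.996 CPM, next 13.2). WT-2004 stood high for Ces1d (109 CPM, next 72.6), WT-2031 for Comp (5.29 CPM, next 2.46), and WT-5813 stood low for Ucp2 (42.1 CPM, next 56.9).

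Without WT-5803 in the edgeR fit, Col1a1 gave a log2 fold change of 1.24 (edgeR adjusted p = 0.0357), Col3a1 of 0.83 (edgeR adjusted p = 0.0438) and Zbp1 of 1.67 (edgeR adjusted p = 0.0145). Without WT-5819, Myh7 gave a log2 fold change of 4.50 (edgeR adjusted p = 0.000304).

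The difference between late-dosed and WT animals was unlike in the 2 ventricles for 24 of 89 named genes, by edgeR's test of the difference itself. Over all genes it was called for 2592 of 14095 (18.4%). Each value here is the log2 fold change in the LV minus that in the RV. Among stress and signaling genes it was -1.88 for Nppb, -1.44 for Edn3, -1.35 for Ankrd1, -0.69 for Fstl1 and -0.55 for Ccnd2. Mitochondrial genes were lower in the LV against WT than in the RV, with Aldh6a1 at -0.95, Dlat at -0.82, Uqcrc2 at -0.76, Ndufc1 at -0.69, Ppm1k at -0.67, Ndufs1 at -0.61, Ndufs3 at -0.57, Hibadh at -0.57, Etfdh at -0.54 and Atp5l at -0.47. So were Kcnj2 (-0.78), Kcnj3 (-0.63), Pde3a (-0.57), Atp2a2 (-0.56) and Lpl (-0.76), and also Slc22a3 (-0.85), Hsd17b7 (-0.82), Dsp (-0.52) and Dsc2 (-0.46). All 24 values were negative. Of the 2592 called differences over all genes 1504 were negative, and the median over the 14095 genes tested was 0.04. Most named genes were chosen by their difference in the same LV libraries, so this count of signs tests nothing.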

How the results depend on the processing

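The number of genes called in late-dosed against WT LV moved by over 1.5 times with the tool: DESeq2 called 626, voom with quality weights 374, limma on log2(TPM + 1) 23, and an unequal-variance test on the same values 0 (with 2338 at an unadjusted p under 0.05). Leaving out 1 animal gave from 13 (without late-5755) to 344 (without late-5814) calls. With WT animals numbered from 5700 up only, edgeR called 0, with 1250 at an unadjusted p under 0.05. The other 8 settings gave 144 to 252 calls. Pkp2 kept its direction throughout, at 3.35 (adjusted p = 0.191) in the unequal-variance test and 3.60 (adjusted p = 0.146) in edgeR with animals from 5700 up, neither passing the threshold, and 3.26 to 3.80 with 1 animal left out. The difference in the mitochondrial share ran from -8.37 to -3.72 percentage points with 1 animal left out (exact permutation p 0.01798 to 0.184). Late against early LV gave 54 calls in DESeq2, 0 to 7 with 1 animal left out, and 0 in limma and with sex as a covariate. The contrast between ventricles gave 3174 calls with the animal as a replicate block, which kept the 24 named differences and added Timp1, Fcer1g, H2-D1, Suclg1, Fh1, Postn and Dsg2. With that block the difference changed sign for Nppa (-0.26), Spp1 (-0.41), Dkk3 (-0.01) and Meox1 (0.01), none of them called in either fit. In late-dosed against WT LV no called gene named in the text reversed, and Jup, which was not called, ran from -0.02 to 0.18. The cause of these shifts was not tested.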
